A study of Mus musculus with 9 samples.

Results

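The Fc-gamma receptors of the mouse and the signalling chain they share were followed across tumour-bearing omenta after local or systemic T cell transfer. They are the activating receptors Fcgr1, Fcgr3 and Fcgr4, the inhibitory receptor Fcgr2b and the common gamma chain Fcer1g. The members were taken by gene symbol, and all 5 were found among the 55359 genes of the count table and passed the filter on low counts. RNA sequencing was carried out on 9 omenta, 1 per labelled mouse, from C57BL/6 mice of 7 to 10 weeks, all of which had received 500000 B16-OVA cells intraperitoneally on day 0. The IP group was given OT-I T cells electroporated with IL-12 mRNA into the peritoneal cavity on day 6, the IV group was given such cells into the blood, and the PBS group was injected with saline. Each group had 3 libraries, named here by the mouse number in the labels as IP 2, IP 3 and IP 4, IV 1, IV 2 and IV 4, and PBS 1, PBS 2 and PBS 3. Omenta were taken 18 h after the T cells were injected. B16-OVA is a mouse melanoma line that expresses ovalbumin, OT-I T cells carry a transgenic receptor for an ovalbumin peptide, and IL-12 is a cytokine that drives interferon-gamma production. The design asks how the route of transfer bears on the tissue. All mice carried tumour, none of the groups used here received T cells without IL-12 mRNA, the PBS titles do not give the route of the saline, and no source used here gives the number of T cells, and the effect of the T cells cannot be told apart from that of the IL-12 they made.

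Fc-gamma receptors bind the constant part of IgG and link antibodies to phagocytosis, killing of coated cells and cytokine release. Activating receptors signal through the ITAM motif of the Fcer1g chain, which Src-family kinases and Syk read, while Fcgr2b carries an ITIM motif of its own that recruits the inositol phosphatase SHIP. In the mouse, monocytes, macrophages and neutrophils carry activating and inhibitory forms together, NK cells chiefly Fcgr3, and B cells Fcgr2b alone. Interferon-gamma is a classical inducer of Fcgr1 in monocytes and macrophages. The omentum, a fat-rich sheet of peritoneum, holds clusters of such leukocytes known as milky spots.

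The libraries held 7379798 (IV 2) to 44626843 (PBS 3) counts assigned to genes. The first principal component took 60.4% of the variance. On it, IV 4 stood at -23.28 while IV 1 and IV 2 stood at 33.45 and 22.28. The IP libraries lay between 34.97 and 62.26, and the PBS libraries between -64.26 and -46.24. IV 4 lay closer to PBS than the other IV libraries did, and nearer to PBS 3 than to IV 1 or IV 2. Across the genes tested, its Pearson correlation was 0.9815 with PBS 3, 0.9484 with IV 1 and 0.9531 with IV 2. Transcripts of pancreatic acinar cells, the enzyme-secreting cells of the neighbouring pancreas, made up 2.62% of counts in IV 1, 1.98% in IP 4 and 0.497% in IV 2. The defining markers of adipocytes and mesothelium (7 genes, all detected) summed to 268 to 348 CPM in IP, 464 to 625 CPM in IV and 340 to 524 CPM in PBS libraries, where CPM is the count scaled to library size, here with factors from the trimmed mean of M values. The 7 melanoma markers summed to 13400 to 15100 CPM in IP, 18000 to 23400 CPM in IV and 25200 to 28100 CPM in PBS libraries. The edgeR p-values below set a difference between groups against the spread between mice within groups, with 3 mice per group. That spread was estimated from all 9 libraries together, so the PBS libraries also bear on the p-values of IP against IV.

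Fcgr1 (ENSMUSG00000015947.11) lies on chromosome 3 in GENCODE M21, while Fcgr2b (ENSMUSG00000026656.16), Fcgr4 (ENSMUSG00000059089.5), Fcgr3 (ENSMUSG00000059498.14) and Fcer1g (ENSMUSG00000058715.12) lie on chromosome 1. Fcgr2b, Fcgr4 and Fcgr3 are consecutive protein-coding genes there. Fcgr2b and Fcgr3 have near-identical stretches: 163 of the 1733 windows of 51 bases in Fcgr3 exons (9.41%) occur unchanged in Fcgr2b, and 393 of 5689 windows in Fcgr2b (6.91%) occur in another gene or on another strand. Counting could split reads from these stretches, so the values of both genes are uncertain to that extent. No window of Fcgr1, Fcgr4 or Fcer1g was shared. Fcgr2b also overlaps the antisense gene Gm38204 on the opposite strand, and the sources used here do not give the strand setting of the counting, without which reads of that pair cannot be told apart. Fcgr3 overlaps Mir6546 and Fcgr4 overlaps Gm26110 on the same strand, where strand would not separate them.

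Promoter windows of Fcgr1, Fcgr4 and Fcgr2b are shown because these genes stood for the range of responses described below. Each runs from 250 bases before to 50 bases after the annotated start, in RefSeq sequence of GRCm38.p6, written 5' to 3' on the gene's strand. Capitals mark matches to 3 motifs searched on both strands: the interferon-gamma-activated site (GAS) TTCNNNGAA, the core GAAANNGAAA of the interferon-stimulated response element (ISRE), bound by IRF factors, and the core GAGGAA, bound by the myeloid factor PU.1. No match overlapped another.
Fcgr1 promoter, chr3:96293920-96294219, minus strand: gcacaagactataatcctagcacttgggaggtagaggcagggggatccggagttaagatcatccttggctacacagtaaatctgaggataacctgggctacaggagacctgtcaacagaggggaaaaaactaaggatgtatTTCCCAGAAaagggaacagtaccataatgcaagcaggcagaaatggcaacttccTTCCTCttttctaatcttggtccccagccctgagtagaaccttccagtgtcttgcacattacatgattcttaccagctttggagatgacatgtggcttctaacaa
Fcgr4 promoter, chr1:171018676-171018975, plus strand: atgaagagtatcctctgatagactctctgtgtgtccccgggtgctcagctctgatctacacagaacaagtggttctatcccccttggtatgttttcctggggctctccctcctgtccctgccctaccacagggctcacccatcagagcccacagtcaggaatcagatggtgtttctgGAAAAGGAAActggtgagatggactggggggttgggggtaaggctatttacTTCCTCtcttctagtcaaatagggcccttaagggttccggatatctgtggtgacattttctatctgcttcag
Fcgr2b promoter, chr1:170976022-170976321, minus strand: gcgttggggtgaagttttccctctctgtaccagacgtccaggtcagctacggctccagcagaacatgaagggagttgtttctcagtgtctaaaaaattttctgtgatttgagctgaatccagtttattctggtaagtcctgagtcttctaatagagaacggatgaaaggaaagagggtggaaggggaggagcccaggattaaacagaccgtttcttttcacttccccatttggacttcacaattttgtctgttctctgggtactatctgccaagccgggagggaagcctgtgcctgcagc
The Fcgr1 window held a GAS match, TTCCCAGAA, from -109 to -101 relative to the start, and a PU.1 core, read as TTCCTC, from -55 to -50. The Fcgr4 window held an ISRE core, GAAAAGGAAA, from -73 to -64 and a PU.1 core from -22 to -17. No match to the 3 motifs was found in the windows of Fcgr2b or Fcer1g, and the first of 2 listed windows of Fcgr3 held a PU.1 core alone, from -6 to -1. Of 32851 RefSeq promoter windows of the same length, 8.3% held the GAS letters, 3.44% the ISRE core and 28.3% the PU.1 core, so the PU.1 letters are common. A match describes these letters and is not evidence that a factor binds there.

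After IP transfer, all 5 members were higher than in PBS omenta, and after IV transfer all 5 were higher as well (edgeR quasi-likelihood test, Benjamini-Hochberg adjusted p under 0.05). Of the 17123 genes tested, 18.7% were called higher in IP and 10.4% were called higher in IV against PBS. In both comparisons the treated libraries did not overlap the PBS libraries for any member, a pattern in that direction that 28.4% of all genes showed for IP and 16.5% showed for IV. The comparisons share the PBS libraries and are therefore not independent. The median log2 fold change of the 5 members was 2.76 for IP and 1.77 for IV, against medians over all genes of 0.02 and 0.04. In bulk tissue, fewer cells of a type and less RNA per cell cannot be told apart.

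**Figure D1:**
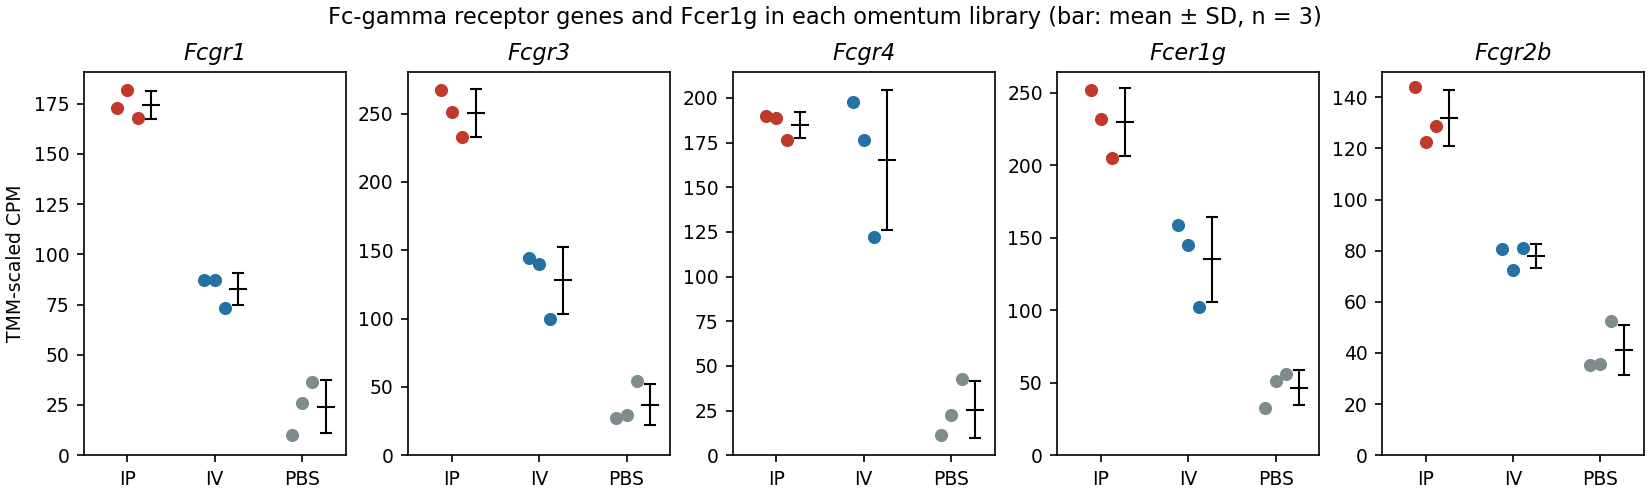
CPM of each member in every library, with 1 panel per gene, groups in the order IP, IV and PBS on the horizontal axis, points for libraries and bars for the mean and SD (n = 3 per group). All IP and IV points lie above all PBS points in each panel, and IP points lie above IV points except for Fcgr4, where IV 1 reached 198 CPM.

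Fcgr1 encodes the high-affinity IgG receptor CD64, a surface mark of monocytes and macrophages. It had 173, 182 and 168 CPM in IP 2, IP 3 and IP 4, 87.4, 87.4 and 73.4 CPM in IV 1, IV 2 and IV 4, and 10.2, 26.03 and 36.4 CPM in PBS 1, PBS 2 and PBS 3. The IP libraries were the highest and close to each other, the IV libraries lay between, and the PBS libraries spread more widely than either, with PBS 1 lowest. Relative to PBS, Fcgr1 was 7.19-fold higher in IP (log2 2.85 ± 0.35 SE, edgeR adjusted p = 0.000175) and 3.41-fold higher in IV (log2 1.77 ± 0.34, adjusted p = 0.00824). With no filter on low counts the IV value was 1.71 and missed the threshold (adjusted p = 0.0745, within a range of 1.18e-05 to 0.0745 over the 19 alternative settings).

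Fcgr3 encodes an activating receptor of low affinity found on myeloid and NK cells. It had 268, 251 and 233 CPM in IP 2, IP 3 and IP 4, 144, 140 and 100.03 CPM in IV 1, IV 2 and IV 4, and 26.9, 29.5 and 54.4 CPM in PBS 1, PBS 2 and PBS 3. The IV library nearest to PBS was IV 4 and the PBS library nearest to IV was PBS 3, which were still apart. The gene was 6.78-fold higher in IP (log2 2.76 ± 0.26, edgeR adjusted p = 4.37e-05) and 3.46-fold higher in IV (log2 1.79 ± 0.26, adjusted p = 0.00271) than in PBS.

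Fcgr4 encodes an activating receptor of intermediate affinity that monocytes, macrophages and neutrophils carry. It had 190, 189 and 177 CPM in IP 2, IP 3 and IP 4, 198, 176 and 122 CPM in IV 1, IV 2 and IV 4, and 11.4, 22.5 and 42.8 CPM in PBS 1, PBS 2 and PBS 3. IP and IV libraries overlapped, since IV 1 was above every IP library and IV 4 below all of them, and both groups stood apart from PBS. Against PBS, Fcgr4 was 7.22-fold higher in IP (log2 2.85 ± 0.39, edgeR adjusted p = 0.000317) and 6.46-fold higher in IV (log2 2.69 ± 0.39, adjusted p = 0.0028).

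Fcer1g encodes the chain that the activating receptors need for surface expression and signalling. It had 252, 232 and 205 CPM in IP 2, IP 3 and IP 4, 159, 145 and 102 CPM in IV 1, IV 2 and IV 4, and 32.7, 51.2 and 56.1 CPM in PBS 1, PBS 2 and PBS 3. The groups kept the order IP, IV, PBS with no overlap. The chain was 4.92-fold higher in IP (log2 2.30 ± 0.23, edgeR adjusted p = 4.87e-05) and 2.90-fold higher in IV (log2 1.53 ± 0.22, adjusted p = 0.00275) than in PBS.

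Fcgr2b, the inhibitory receptor, had the smallest fold change of the members in both comparisons with PBS. It had 144, 123 and 129 CPM in IP 2, IP 3 and IP 4, 80.5, 72.6 and 81.1 CPM in IV 1, IV 2 and IV 4, and 35.5, 35.7 and 52.5 CPM in PBS 1, PBS 2 and PBS 3. The IP libraries lay close together, as did the IV libraries, while PBS 3 stood above PBS 1 and PBS 2. No library overlapped those of another group. Relative to PBS, Fcgr2b was 3.20-fold higher in IP (log2 1.68 ± 0.16, edgeR adjusted p = 4.76e-05) and 1.89-fold higher in IV (log2 0.92 ± 0.16, adjusted p = 0.00513).

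The libraries that stood apart changed the sizes of these values and none of the calls. With IV 4 left out, the log2 fold changes of IV against PBS were 1.84 for Fcgr1, 1.94 for Fcgr3, 2.86 for Fcgr4, 1.70 for Fcer1g and 0.89 for Fcgr2b. With PBS 3 left out they were 2.19, 2.18, 3.29, 1.68 and 1.13 in the same gene order, and with PBS 1 left out 1.40, 1.60, 2.33, 1.33 and 0.82. For IP against PBS, the values without PBS 1 ran between 1.58 (Fcgr2b) and 2.58 (Fcgr3). Leaving the acinar genes out of the counts kept all 5 members higher in both comparisons.

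**Figure D2:**
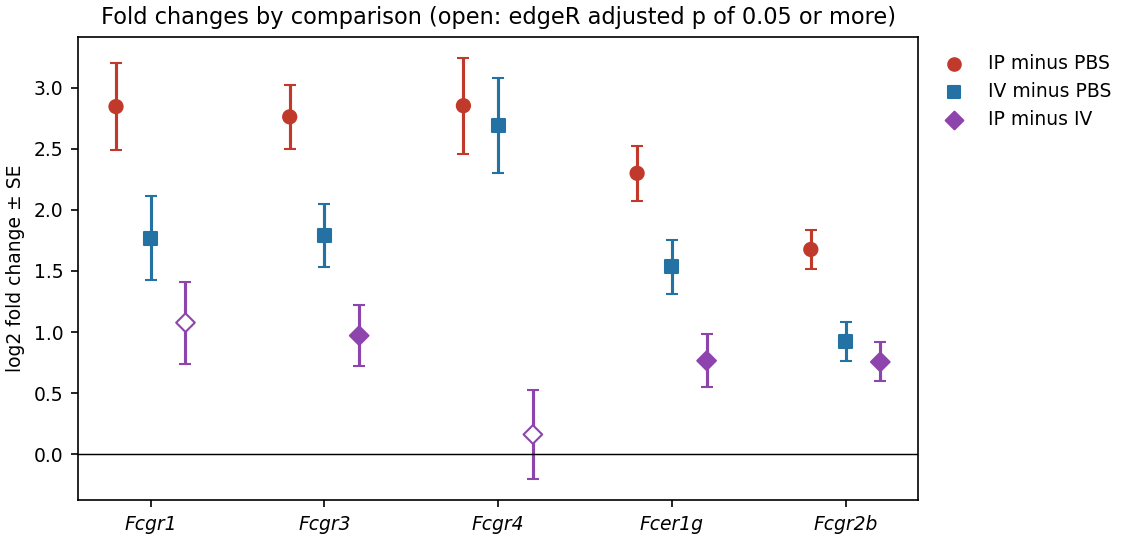
log2 fold change with its SE for each member in the comparisons IP against PBS, IV against PBS and IP against IV (edgeR, 9 libraries). Fcgr2b has the lowest value against PBS in both routes, and the Fcgr4 values against PBS of 2.85 for IP and 2.69 for IV lie nearly side by side.

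Between the routes, the transcripts of 3 of the 5 members were higher in IP than in IV omenta, where 5.93% of all genes tested were called higher. Fcgr3 was 1.96-fold higher in IP (log2 0.97 ± 0.25, edgeR adjusted p = 0.0337), Fcer1g 1.70-fold higher (log2 0.77 ± 0.22, adjusted p = 0.0485) and Fcgr2b 1.69-fold higher (log2 0.76 ± 0.16, adjusted p = 0.014). Fcgr1 had the largest value, 2.11-fold (log2 1.08 ± 0.33), and missed the threshold with an adjusted p of 0.0675 although its groups did not overlap. Fcgr4 differed by 0.16 ± 0.37 on the log2 scale (adjusted p = 0.831) with overlapping groups, and its sign turned to -0.014 without IV 4. Of all genes, 17.9% were higher in IP than in IV without overlap, as were Fcgr1, Fcgr3, Fcer1g and Fcgr2b here.

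The number of members called between the routes rested on single libraries. It was 3 over all libraries, 0 without IP 2 or IV 2, 1 without IP 3, IP 4 or IV 4, 2 without IV 1 or PBS 2, and 4 without PBS 1 or PBS 3. Fcgr1 was the member added in the last case, with adjusted p = 0.00251 without PBS 1 and 0.0299 without PBS 3, within a range of 0.000963 to 0.304 over the 19 alternative settings. With 1 library left out, the number of all genes called higher in IP also moved. It ran from 435 without IP 2 to 1709 without IV 4, against 1015 over all libraries. The members' fold changes moved little over these fits: Fcgr1 from 1.00 to 1.12, Fcgr3 from 0.82 to 1.07, Fcer1g from 0.60 to 0.90 and Fcgr2b from 0.69 to 0.81 on the log2 scale. By the fit with library totals in place of the scaling, Fcgr2b was the 1 member past the threshold.

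Because the activating receptors and Fcgr2b act against each other on myeloid cells that carry both, their counts were compared within each library. A ratio within a library removes library size. In bulk tissue it also takes in B cells, which carry Fcgr2b alone, and NK cells, which carry chiefly Fcgr3, so it is not a balance within a cell. The Fcgr1 to Fcgr2b count ratio was 1.20, 1.48 and 1.31 in IP 2, IP 3 and IP 4, 1.09, 1.20 and 0.905 in IV 1, IV 2 and IV 4, and 0.289, 0.729 and 0.694 in PBS 1, PBS 2 and PBS 3. The Fcgr4 to Fcgr2b count ratio was 1.32, 1.54 and 1.37 in IP 2, IP 3 and IP 4, 2.46, 2.43 and 1.503 in IV 1, IV 2 and IV 4, and 0.323, 0.629 and 0.814 in PBS 1, PBS 2 and PBS 3. Both ratios were above those of all PBS libraries in every IP and IV library, and the Fcgr4 ratio of IV 1 and IV 2 was above that of the IP libraries. The Fcgr3 to Fcgr2b count ratio was 1.86, 2.05 and 1.81 in IP libraries, 1.79, 1.93 and 1.23 in IV libraries and 0.758, 0.826 and 1.04 in PBS libraries, again with no overlap against PBS.

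On the log2 scale the mean Fcgr1 ratio was 0.41 ± 0.15 in IP, 0.08 ± 0.21 in IV and -0.92 ± 0.75 in PBS (SD, n = 3 each). The mean Fcgr4 ratio was 0.49 ± 0.12 in IP, 1.06 ± 0.40 in IV and -0.87 ± 0.69 in PBS on the same scale. In IP against PBS, the log2 ratio differed by 1.33 for Fcgr1, 1.14 for Fcgr3, 1.36 for Fcgr4 and 0.63 for Fcer1g. Each gave p = 0.1 in a two-sided exact permutation test, the smallest p that 3 against 3 allows, and 0.171 after Benjamini-Hochberg adjustment over 12 ratio comparisons. In IV against PBS the differences were 1.01, 0.90 and 1.92 for Fcgr1, Fcgr3 and Fcgr4, with the same p-values from the exact test, and that of Fcgr1 was 0.57 without PBS 1. The Fcer1g ratio differed by 0.60 in IV against PBS, with overlapping groups (exact permutation p = 0.2, adjusted 0.24).

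Between IP and IV all 4 ratios overlapped. The largest difference was that of Fcgr4 to Fcgr2b, -0.57 on the log2 scale (exact permutation p = 0.2, adjusted 0.24), and it was -0.80 without IV 4. Those of Fcgr1, Fcgr3 and Fcer1g were 0.32, 0.23 and 0.03, with exact permutation p of 0.2, 0.4 and 1.0. The design could not reach a p of 0.05 for any ratio, and a p that misses it does not show that the ratios were alike. The stretches that Fcgr2b and Fcgr3 share bear on the ratio between them.

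**Figure D3:**
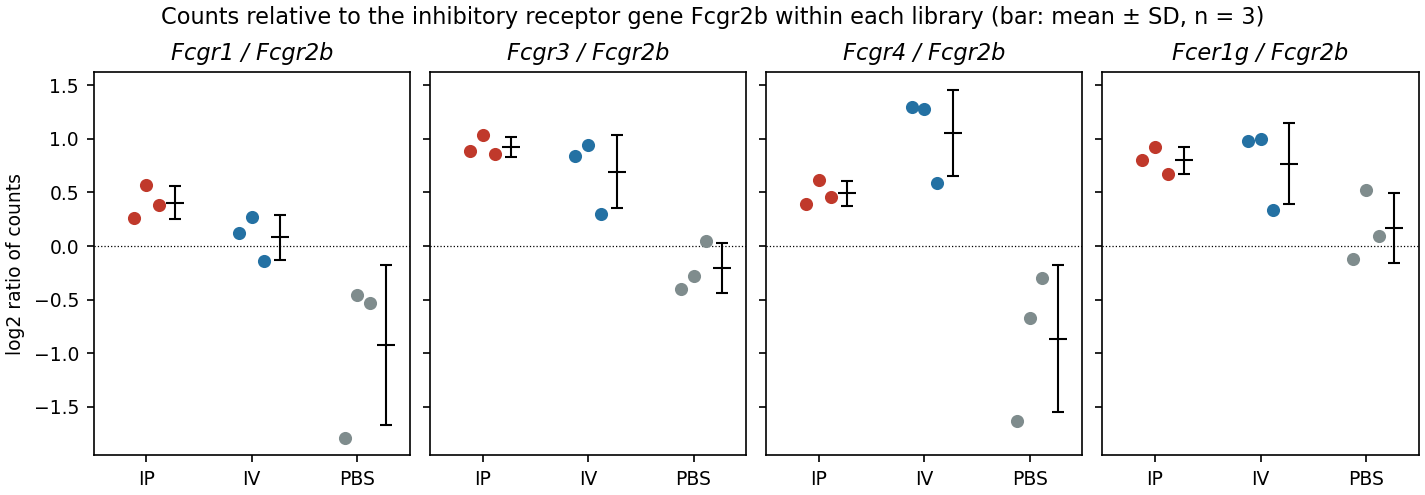
log2 count ratio of each activating member to Fcgr2b in every library (points), with the group mean and SD, groups in the order IP, IV and PBS. Ratios in PBS lie lowest for Fcgr1, Fcgr3 and Fcgr4, and the Fcgr4 ratio reaches 1.30 and 1.28 in IV 1 and IV 2.

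Levels can be compared between genes only per length, and were put as CPM per kb of exon (all exons of the gene merged). On that scale Fcer1g had the highest level in each group, 263 ± 26.8 in IP, 155 ± 33.5 in IV and 53.4 ± 14.1 in PBS (SD, n = 3 each), though in IV its libraries overlapped those of Fcgr4. Fcgr4 and Fcgr3 followed in IP at 147 ± 5.81 and 144 ± 10.0 CPM per kb with overlapping libraries. In IV omenta the Fcgr4 level of 132 ± 31.2 CPM per kb lay above the Fcgr3 level of 73.7 ± 14.0, and in PBS omenta the pair overlapped at 20.3 ± 12.6 for Fcgr4 and 21.3 ± 8.74 for Fcgr3. Fcgr1 came next with 67.4 ± 2.76 in IP, 31.9 ± 3.11 in IV and 9.36 ± 5.09 CPM per kb in PBS, where it overlapped Fcgr4. Fcgr2b was lowest with 22.8 ± 1.92 in IP, 13.5 ± 0.82 in IV and 7.12 ± 1.69 CPM per kb in PBS, overlapping Fcgr1 in PBS.

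The order below Fcer1g depended on the length used. With the mean length of protein-coding transcripts in place of merged exons, a setting chosen after the data were seen, Fcgr2b stood at 68.8 in IP, 40.7 in IV and 21.5 CPM per kb in PBS, level with or above Fcgr1, and Fcgr3 stood above Fcgr4 in IP with 234 against 147 CPM per kb. With the transcript length, Fcgr4 at 132 and Fcgr3 at 119 CPM per kb had overlapping libraries in IV. Fcer1g stayed first under both lengths. The merged exons of Fcgr2b span 5790 bases, against 2589 bases for Fcgr1, 1736 for Fcgr3, 1256 for Fcgr4 and 874 for Fcer1g.

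Transcripts of myeloid cells moved with the members. The 8 genes of a pan-myeloid list, among them the lysozyme gene Lyz2 and the integrin gene Itgb2, summed to 3340 to 3650 CPM in IP, 2240 to 3170 CPM in IV and 877 to 1500 CPM in PBS libraries. All 8 were called higher in IP and 6 of 8 in IV against PBS, and their mean log2 CPM was 1.75 higher in IP and 1.23 higher in IV than in PBS. Leaving out PBS 1 or PBS 2 left 4 of the 8 called in IV against PBS. Relative to that mean within each library, Fcgr2b differed by -0.05 in IP and by -0.29 in IV against PBS on the log2 scale, with overlapping groups. Set against the same mean, Fcgr1 was 1.27 higher in IP and 0.71 higher in IV than in PBS, Fcgr3 1.08 and 0.61 higher, Fcgr4 1.30 and 1.63 higher, and Fcer1g 0.58 and 0.32 higher, the last with overlap. Between the routes the relative values of Fcgr1 and Fcgr3 were 0.56 and 0.47 higher in IP without overlap, while that of Fcgr4 was 0.33 lower in IP than in IV without overlap. These relative values are descriptions, the pan-myeloid genes themselves changed, and the part that the number of myeloid cells had in the results was not tested.

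**Figure D4:**
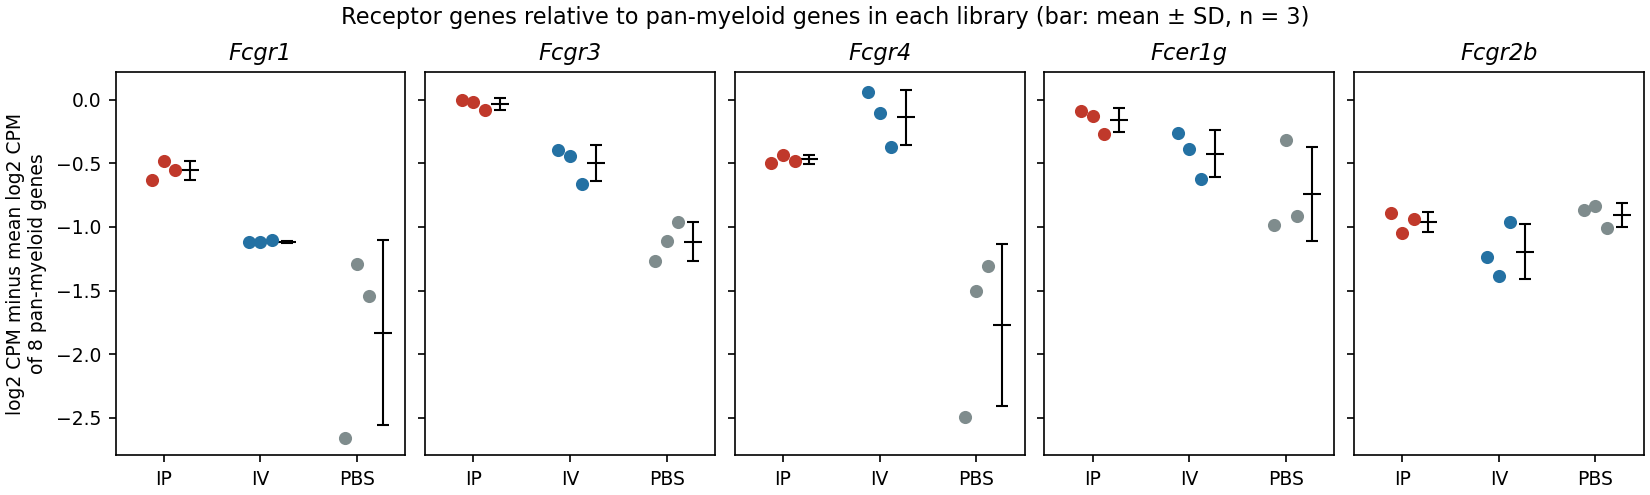
log2 CPM of each member minus the mean log2 CPM of 8 pan-myeloid genes in the same library, shown for IP, IV and PBS (points are libraries, bars the mean and SD). Fcgr2b overlaps between treated and PBS libraries, with group means of -0.96 in IP, -1.20 in IV and -0.91 in PBS, and Fcgr4 has means of -0.47 in IP, -0.14 in IV and -1.77 in PBS.

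Markers of the cell types that can carry Fc receptors gave the following summed levels. The 11 monocyte genes, of which Plac8 and Ly6c2 were the most abundant, summed to 1150 to 1200 CPM in IP, 699 to 1040 CPM in IV and 206 to 381 CPM in PBS libraries. Against PBS, 6 of them were called higher and 2 lower in IP, and 4 higher in IV. The 12 resident macrophage genes, of which the complement genes C1qb and C1qa were the most abundant, summed to 1200 to 1340 CPM in IP, 1460 to 1890 CPM in IV and 621 to 1040 CPM in PBS libraries. Here 3 genes were called higher and 5 lower in IP against PBS, with a median log2 fold change of 0.002, and 4 higher in IV, so the higher sum in IP was not shared by most of the list. The number lower in IP was 3 without PBS 1, IP 2 or IP 3. The 11 neutrophil genes reached 148 to 203 CPM in IP, 36.9 to 253 CPM in IV and 12.1 to 27.9 CPM in PBS libraries, with Ly6g and Camp at 0 in PBS 2. NK cell genes (8) summed to 105 to 109 CPM in IP, 79 to 228 CPM in IV and 17 to 55.6 CPM in PBS libraries, and Gzma and Klrk1 were the most abundant. Of these 8, 2 were called higher in IP, with a median of -0.10, and 4 in IV, with a median of 1.60. The counts were 1 in IP without IV 4 and 2 in IV without PBS 1, PBS 2 or IV 2. Both neutrophil and NK cell lists spread widely among the IV libraries. The 9 B cell genes reached 40.2 to 67.5 CPM in IP, 135 to 479 CPM in IV and 60.6 to 73.2 CPM in PBS libraries. Mast cell and basophil genes (10) summed to 104 to 120 CPM in IP, 39.8 to 71.6 CPM in IV and 23 to 32.7 CPM in PBS libraries. The part of each cell type in the members' values was not tested.

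Most of the kinases and adaptors that act downstream of the ITAM were called higher as well. In IP against PBS, 16 of 17 were called higher, with a median log2 fold change of 1.56, and 14 of 17 in IV, with a median of 1.18. Lyn, a Src-family kinase that phosphorylates the ITAM, had means of 130 ± 7.78 in IP, 107 ± 12.9 in IV and 43.7 ± 12.05 CPM in PBS omenta, and rose by 1.57 ± 0.18 in IP and 1.28 ± 0.18 in IV on the log2 scale (edgeR adjusted p = 0.000124 and 0.00268). Lcp2, the adaptor SLP-76, rose by 2.38 ± 0.28 in IP and 1.64 ± 0.28 in IV. Lat2, the myeloid and B cell adaptor NTAL, rose by 2.21 ± 0.23 in IP and 1.47 ± 0.23 in IV. Syk itself, singled out after its values were seen, had means of 96.0 ± 7.40 in IP, 79.2 ± 24.8 in IV and 44.8 ± 10.3 CPM in PBS omenta, and rose by 1.10 ± 0.23 and 0.82 ± 0.23 (adjusted p = 0.00401 and 0.0356). The IV count dropped to 8 of 17 without PBS 1. Between the routes 1 of 17 was called, the adaptor Gab2, higher in IP by 0.82 ± 0.19 (adjusted p = 0.0193). That count was 0 without IP 2, IP 3, IV 1 or IV 2, 2 without PBS 2 or IV 4 and 7 without PBS 3.

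The inhibitory side of the pathway was divided between genes that rose and genes that did not pass. Of 15 phosphatases, adaptors and ITIM receptors, 10 were called higher in IP against PBS (median log2 fold change 1.18) and 8 in IV (median 0.77). Ptpn6, the phosphatase SHP-1 that ITIMs recruit, had means of 232 ± 9.89 in IP, 197 ± 33.2 in IV and 101 ± 10.9 CPM in PBS omenta, and rose by 1.19 ± 0.15 in IP and 0.96 ± 0.15 in IV (edgeR adjusted p = 0.000175 and 0.00323). Pirb, an ITIM receptor of myeloid and B cells, rose by 2.27 ± 0.27 in IP and 1.55 ± 0.26 in IV. Inpp5d, which encodes SHIP and was singled out after its values were seen, rose by 1.31 ± 0.26 in IP and 1.07 ± 0.26 in IV (adjusted p = 0.00268 and 0.0197). The IV count was 4 without PBS 1 or IV 2 and 5 without PBS 2. Between the routes 4 of 15 were called higher in IP, namely Cblb by 0.82 ± 0.18, Dok2 by 0.93 ± 0.21, Lilrb4a by 1.42 ± 0.33 and Dok1 by 0.51 ± 0.13 on the log2 scale. That count was 0 without IP 2 or IV 2, 1 without IP 3, IP 4 or IV 1 and 7 without IV 4.

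**Figure D5:**
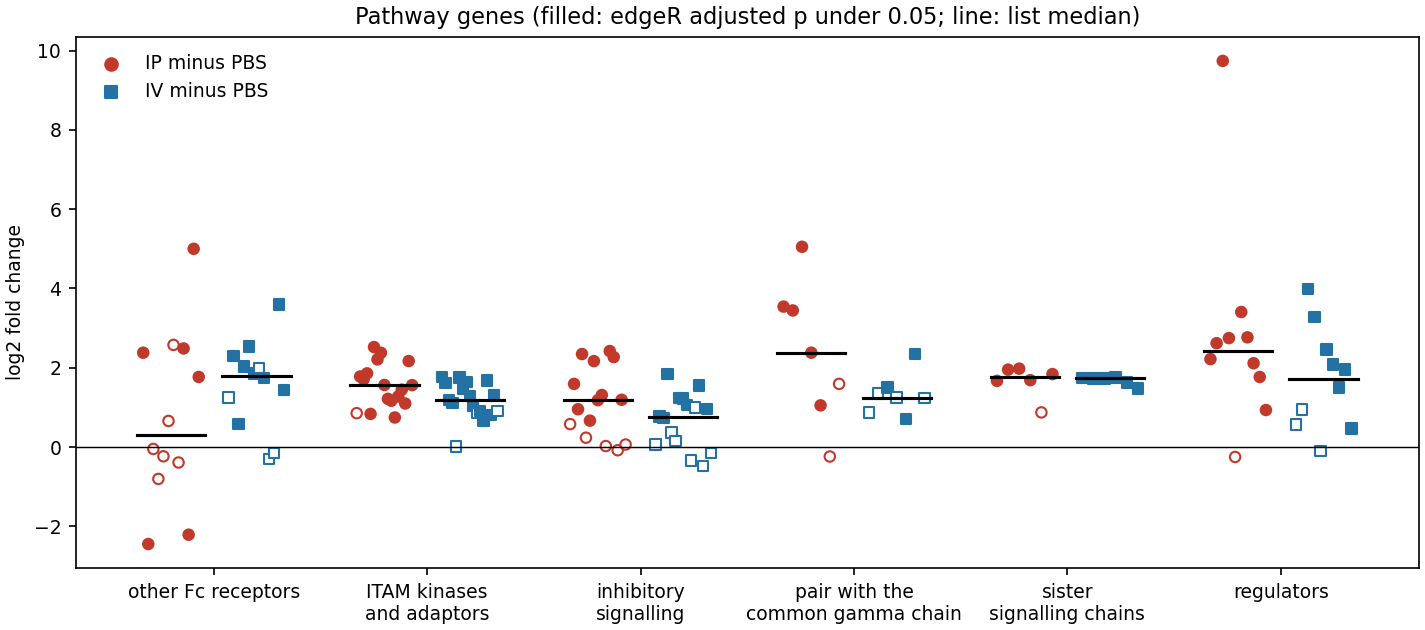
log2 fold change of every tested gene in the 6 pathway lists, for IP against PBS and IV against PBS, with each list's median as a line and filled points for an edgeR adjusted p under 0.05. The ITAM kinase list has medians of 1.56 in IP against PBS and 1.18 in IV against PBS, and the other Fc receptors spread to both sides of 0.

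Other receptors that use the Fcer1g chain include C-type lectins of myeloid cells and an activating receptor of NK cells. Of 7 tested, 5 were called higher in IP and 3 in IV against PBS. Both counts take in Il3ra, the IL-3 receptor alpha chain, which is neither a lectin nor an NK cell receptor. It rose by 1.05 ± 0.14 in IP and 0.71 ± 0.14 in IV on the log2 scale (edgeR adjusted p = 0.000234 and 0.00824). Clec4n, the C-type lectin Dectin-2, had means of 127 ± 5.58 in IP, 10.9 ± 2.40 in IV and 3.81 ± 0.94 CPM in PBS omenta, a log2 rise of 5.05 ± 0.23 in IP and 1.5 ± 0.21 in IV (edgeR adjusted p = 3.7e-06 and 0.00268). Clec4d, a related lectin, had means of 92.5 ± 15.6 in IP, 14.4 ± 12.4 in IV and 7.92 ± 0.51 CPM in PBS omenta, and was called in IP alone (log2 3.54 ± 0.56, adjusted p = 0.00115). Ncr1, the NK cell receptor NKp46, had means of 1.57 ± 0.11 in IP, 9.65 ± 5.42 in IV and 1.82 ± 1.20 CPM in PBS omenta, and rose in IV by 2.35 ± 0.52 (adjusted p = 0.0141). Between the routes, Clec4n was higher in IP by 3.55 ± 0.22 and Clec4d by 2.67 ± 0.54, and Ncr1 was lower in IP by a log2 fold change of -2.59 ± 0.53. The count of these receptors called higher in IP than in IV was 1 without IP 2 or IV 2 and 4 without IV 1, and Ncr1 was not called without IP 2 or IP 3.

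Sister chains of Fcer1g carry ITAMs or related motifs. Apart from Tyrobp and Hcst, the 6 listed are chains of the T cell receptor complex, Cd3d, Cd3e and Cd247 among them. In IP against PBS, 5 of 6 were called higher (median log2 fold change 1.76), and in IV all 6 (median 1.73), a count that was 3 without PBS 1 or IV 2. The counts and medians of this list are therefore mostly those of T cell chains, and the part of T cells in them was not tested. Tyrobp, the chain DAP12 of myeloid and NK cells, had means of 169 ± 5.48 in IP, 132 ± 32.8 in IV and 47.3 ± 10.3 CPM in PBS omenta, with rises of 1.84 ± 0.21 and 1.48 ± 0.21 (edgeR adjusted p = 0.000104 and 0.00251). Between the routes 0 of 6 passed in edgeR, in DESeq2 or in limma voom, and the smallest unadjusted p was 0.0329, for Hcst, the 1 gene of the list with an unadjusted p under 0.05. The median difference of the list was 0.08 on the log2 scale, and that of Tyrobp was 0.36 ± 0.20 (edgeR adjusted p = 0.305). Fcer1g was 0.77 ± 0.22 higher in IP, with an edgeR adjusted p of 0.0485 that reached 0.174 when 1 library was left out.

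Fc receptors outside the Fc-gamma group did not move as a block. Of 12 tested, 4 were called higher and 2 lower in IP against PBS, where 14.2% of all genes were lower, and 8 higher in IV against PBS, the last being 5 without PBS 1. Trim21, a cytosolic receptor for antibody, rose by 1.77 ± 0.26 in IP and 1.43 ± 0.26 in IV (edgeR adjusted p = 0.0005 and 0.00607). Fcer2a, the low-affinity IgE receptor CD23 of B cells, had means of 0.291 ± 0.11 in IP, 8.06 ± 5.39 in IV and 1.59 ± 0.12 CPM in PBS omenta, a log2 change of -2.44 ± 0.53 in IP and 2.30 ± 0.46 in IV. Fcmr, the IgM receptor of B cells, had means of 3.54 ± 0.55 in IP, 25.8 ± 17.7 in IV and 6.20 ± 1.11 CPM in PBS omenta, and rose in IV by 2.03 ± 0.40 (adjusted p = 0.00903). Both are B cell genes. The summed B cell markers, of which Fcer2a is one, were also highest in IV, at 135 to 479 CPM. The part of B cells in these values was not tested. Between the routes 6 of 12 were lower in IP than in IV, as were 4.47% of all genes, with Fcer2a at -4.74 ± 0.54 and Fcmr at -2.83 ± 0.42, and 1 was higher, Fcrlb, by 2.79 ± 0.49. The number lower was 3 without IP 2 and 4 without IP 4 or IV 2.

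Regulators known for Fc receptor genes rose in IP for 9 of 10 genes (median log2 fold change 2.42) and in IV for 7 of 10 (median 1.73). Ifng, the gene of interferon-gamma, had means of 715 ± 131 in IP, 13.3 ± 2.601 in IV and 0.826 ± 0.66 CPM in PBS omenta, and was higher by 9.74 ± 0.73 in IP and 3.98 ± 0.60 in IV on the log2 scale (edgeR adjusted p = 2.73e-05 and 0.00362). Between the routes, Ifng was higher in IP by 5.76 ± 0.61 (adjusted p = 0.000824). Spi1, the gene of PU.1, rose by 2.11 ± 0.24 in IP and 1.5 ± 0.23 in IV, and Irf8, an interferon-regulated factor of monocytes, by 2.77 ± 0.32 and 2.09 ± 0.31. Cebpb, a factor of inflammatory myeloid cells, rose in IP by 2.62 ± 0.33 and was higher in IP than in IV by 1.67 ± 0.32 (adjusted p = 0.00857). Between the routes 4 of the 10 were called higher in IP.

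Across the 9 libraries the members moved together, with Pearson correlations of log2 CPM between 0.8993 (Fcgr2b and Fcgr4) and 0.9863 (Fcgr3 and Fcer1g). These correlations span groups that differ in level and describe the 9 libraries only. Among 10964 genes with a mean of at least 5 CPM, those with a pattern most like Fcgr1 were Cxcl9 (r = 0.9962), Crlf2 (0.9958) and Socs1 (0.9957). For Fcgr3 they were Il15ra (0.9974), Dram1 (0.9963) and Ido1 (0.995), and for Fcer1g Cxcl10 (0.997), Pnp (0.9967) and Syt7 (0.9963). The genes most like Fcgr4, which was nearly level between the routes, were Calhm6 (0.9946), Batf2 (0.9935) and Serping1 (0.9914). Those most like Fcgr2b were Tgfb1 (0.994), Zdhhc18 (0.9931) and Ifi207 (0.9928). The lists did not share a gene between members.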

How the data were processed

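Per the labels' protocols, 100 ng of RNA per omentum went into directional, poly(A)-selected, paired-end libraries. The submitters' processing notes name STAR 2.7.9, featureCounts, limma and mm39, without roles. The deposited table holds whole-number counts of 55359 genes, used as deposited. The authors' second table holds log2 CPM of 18833 genes, which equalled log2((count + 0.5) / (total + 1) × 1e6), with totals over those genes, to within 5e-14. Symbols and exon lengths came from GENCODE M21 (GRCm38), where 52083 genes had a symbol, and promoters from RefSeq GRCm38.p6. No coordinates of the files' build are printed.

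edgeR 4.0.16 (R 4.3.3) was fitted to all 9 libraries by robust quasi-likelihood with TMM scaling and no covariates, on 17123 genes left by filterByExpr. Two-sided p-values were adjusted by Benjamini-Hochberg over those genes, and 0.05 was the threshold. Log2 fold changes are the group named first minus the other, and their standard errors are approximations from the F statistic. Ratios used counts + 0.5 and exact permutation tests (scipy 1.17.1). The log2 CPM behind correlations and relative values had a prior count of 2. The scripts were tested on simulated counts. Library totals were 7379798 to 44626843 counts, and libraries of a group differed by 7.35 to 193 times counting noise (chi-square per degree of freedom).

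The members and the 19 gene lists (192 entries) beside them were chosen with earlier results of these data known. Named are the members, up to 4 genes with the smallest p of each pathway list, up to 2 genes of highest mean CPM of each cell type list, and the 3 genes most alike each member, of which some are given as counts only and 1 is not reported here. Lists of dendritic, T and endothelial cells gave summed levels of 50.3 to 57.3, 198 to 228 and 102 to 122 CPM in IP, 40.4 to 89.1, 94.3 to 235 and 59.5 to 113 CPM in IV, and 20.1 to 31.9, 35 to 92.9 and 70.5 to 77.7 CPM in PBS. Alternatives included DESeq2 1.42.0 and limma 3.58.1. No paired samples are stated in the labels.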

Additional observations from a re-analysis of the deposited data

Results flagged for a closer look

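The effect of the IP route against PBS differed from that of the IV route against PBS for 3 members, by the edgeR test of IP against IV in the same fit. The effect of IP was larger by 0.97 on the log2 scale for Fcgr3, by 0.77 for Fcer1g and by 0.76 for Fcgr2b. For each of these genes all 3 IP libraries were above all 3 IV libraries. The same held for Fcgr1, which was not called, and for 17.9% of all genes tested. Of all genes tested, 5.93% were called higher in IP than in IV. The number of members called was 0 without IP 2 or IV 2. The number of all genes called higher moved as well, from 435 without IP 2 to 1709 without IV 4, against 1015 over all libraries. The cause of the differences between the routes was not tested.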

How the results depend on the processing

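Each fitted result was recomputed under 19 alternatives. In IP against PBS all 95 member values kept direction and call, and in IV against PBS 94 of 95 did, the exception being Fcgr1 at 1.71 with no filter on low counts. In IP against IV 68 of 95 did, among them values of Fcgr1 and Fcgr4 that were not called and stayed so. Of the rest, 21 lost the call, which only Fcgr2b, Fcgr3 and Fcer1g had, 4 gained a call and 2 changed sign. With library totals alone, Fcgr3 was 0.88 and Fcer1g 0.68, below the threshold, and 1 member was called. limma on the deposited log2 CPM gave 0.89, 0.68 and 1 member. These 2 settings put the median of all genes at -0.15 and -0.14 in IP against PBS and at -0.12 and -0.11 in IP against IV. Fcgr1 passed with DESeq2 at 1.09 and with only the IP and IV groups at 1.06.

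The mouse numbers were not treated as pairs, since the labels state no pairing. The deviations of same-numbered libraries correlated at -0.399 to 0.1 across genes. These correlations cannot decide whether the mice were paired, since the libraries also differed in depth and acinar content. With the number as a replicate block, Fcgr2b was 0.68, Fcgr3 0.83, Fcer1g 0.67 and Fcgr4 -0.13 in IP against IV, with 0 members called and 626 genes higher and 508 lower, against 1015 and 765 without it. In IV against PBS the block gave 571 genes lower.

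The genes called lower in IV against PBS were 969, and 1684 with DESeq2. With only the 2 groups 935 were higher and 275 lower, against 1784 and 969. In IP against IV DESeq2 gave 1181 lower, against 765. Over the settings other than leaving out a library, the list counts of IP against IV ran from 0 to 6 for the ITAM kinases (1 in edgeR as reported), 1 to 5 for the inhibitory genes (4), 1 to 3 for the gamma-chain partners (2) and 2 to 7 for the regulators (4), and in IV against PBS the lowest counts were 4 for the inhibitory genes (8) and 3 for the sister chains (6). The cause of these shifts was not tested.

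Leaving out each library in turn, IP against IV gave log2 values of 1.00 to 1.12 for Fcgr1, 0.69 to 0.81 for Fcgr2b, 0.82 to 1.07 for Fcgr3, -0.014 to 0.32 for Fcgr4 and 0.60 to 0.90 for Fcer1g, with 0 to 4 members, 435 to 1709 genes higher and 238 to 1164 lower. The Fcer1g to Fcgr2b ratio difference ran from -0.19 to 0.14. IV against PBS gave 770 to 2332 genes higher and 210 to 2248 lower, and IP against PBS 1602 to 2947 lower. Where a group then held 2 libraries, the ratio test could not go below 0.2. Without IV 2, the shallowest library, IV against PBS gave 989 genes higher and 414 lower, and without IV 4 2332 and 2248.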
